A study of Mus musculus with 4 samples.

Results

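The ventral tegmental area (VTA) of mice whose dopamine neurons were chronically activated through the designer receptor hM3Dq was compared with the VTA of mice given the receptor's ligand, clozapine-N-oxide (CNO), without the receptor. Its members are the 5 VTA profiles of these mice, 3 GqCNO mice (781, 801 and 804) and 2 CNO alone mice (C1W7 and C2W2), out of the 47 mouse-by-region profiles in the series, and every gene in them. The series asked how sustained activity changes gene expression in midbrain dopamine neurons. Sections of fresh frozen brain were placed on Visium arrays, on which barcoded discs capture the RNA of the tissue above them, and each profile is the average of the discs assigned to a region of a mouse.

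All mice were male, homozygous for a Cre allele at the dopamine transporter gene (genotype DAT (iCre/iCre) in the labels, a line that the methods name DAT IREScre), and 3 to 4 months old. GqCNO mice received the Cre-dependent vector AAV8-hSyn-DIO-hM3Dq-mCherry in both sides of the midbrain, which limits the receptor and its red fluorescent tag to cells with Cre, and then CNO at 300 mg/L with 2% sucrose in the drinking water for 1 week. CNO alone mice drank the same solution and were not injected. The remaining group of 3 mice, GqVeh (784, 785 and 802), was injected and drank sucrose without CNO, and its values are given beside the others for orientation. All 3 groups were housed singly with a running wheel. GqCNO and CNO alone mice differ in the injected virus and in receptor activation together, which cannot be told apart in this pair of groups.

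As background, hM3Dq was engineered from the human M3 muscarinic acetylcholine receptor so that it no longer answers acetylcholine and answers CNO. It couples to Gq, whose signalling through phospholipase C releases calcium from internal stores and makes neurons fire. Dopamine neurons of the VTA make dopamine with tyrosine hydroxylase (Th) and aromatic amino acid decarboxylase (Ddc), load it into vesicles with the vesicular monoamine transporter (Slc18a2) and take it back up with DAT (Slc6a3). Microglia are the resident phagocytes of the brain and a main source of complement C1q there, while interferons induce a set of antiviral genes and the class I molecules of the major histocompatibility complex (MHC), which present peptides from inside the cell to CD8+ T cells.

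The VTA profiles rest on few discs and moderate depth. The GqCNO profiles average 8, 17 and 4 discs (mice 781, 801 and 804) and hold 89008, 166825 and 40212 unique molecular identifiers (UMIs, each a distinct captured RNA molecule). The GqVeh profiles average 20, 2 and 13 discs (mice 784, 785 and 802), and the CNO alone profiles 49 and 37 discs (C1W7 and C2W2) with 350222 and 291469 UMIs. GqCNO discs held more UMIs each, 9813 to 11126, against 7147 and 7878 in CNO alone mice. All 3 GqCNO mice lay below the CNO alone mice in discs and total UMIs and above them in UMIs per disc (exact permutation test, two-sided p = 0.1 for each measure, the smallest that 3 against 2 mice allow), and the part of depth in the results below was not tested. All levels below are UMIs per 10000 UMIs of the profile, mice of a group are always given in the order above, and 0 UMIs allow up to 0.746 per 10000 in GqCNO mouse 804 but only 0.0857 in C1W7 (3 UMIs of each total). Because a disc covers several cells and an average over discs is a bulk sample, fewer cells of a type and less RNA per cell cannot be told apart.

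The study assigned a disc to the VTA by its position, by a complete Th-stained cell body in it (with mCherry in injected mice), and by at least 2 of the 3 genes Th, Slc6a3 and Slc18a2 above a preset level. Discs rich in the astrocyte genes Gfap and Aldh1l1 or the microglial genes Aif1 and P2ry12 were left out. Levels of these 7 genes are therefore conditional on the choice of discs. Dopamine neuron RNA was present in every VTA profile, as that rule requires: Th stood at 22.2, 20.7 and 4.97 in GqCNO mice, 20.5, 26.7 and 19.2 in GqVeh mice, and 28.1 and 26.0 in CNO alone mice, while Slc6a4 and Hdc, the 2 of 6 markers of other monoaminergic neurons in the files, together did not exceed 0.112 in any VTA profile. Chrm3, the mouse M3 receptor gene, checks the injection only indirectly. It stood at 0.449, 1.02 and 2.74 in GqCNO mice and 3.29, 1.55 and 1.76 in GqVeh mice, against 0.0286 and 0 in CNO alone mice, so that all 6 injected mice lay above both uninjected ones. It rose in the VTA of GqCNO mice (log2 difference 1.70 ± 0.41 SE, adjusted p = 0.0401, but 0.0568 with the array pair as a block, and lost without GqCNO 801, GqCNO 804, GqVeh 784 or either CNO alone mouse). Whether RNA of the transgene is counted there was not tested.

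In the VTA, GqCNO mice had higher RNA levels of MHC class I, interferon-stimulated, complement and microglial genes and of Gfap, and lower levels of genes that dopamine neurons use to make, store and take up dopamine, than CNO alone mice. Of 6312 genes tested, 63 (0.998%) were higher and 8 (0.127%) lower in GqCNO mice at an adjusted p under 0.05, and are called below (limma, Benjamini-Hochberg over all genes tested). The rises spanned log2 differences of 1.24 to 4.02 and the falls -2.21 to -1.17, around a median of -0.07 over all genes. All 63 higher genes stood above both CNO alone mice in each GqCNO mouse and all 8 lower genes below them, patterns that 10.1% and 15.3% of all tested genes had. The same sign within both pairs of arrays follows from that order and is no further check. GqCNO mouse 781 had the highest level in 45 of the 63 genes and mouse 804 in 18, while mouse 801 had the lowest of the 3 in 49. In CNO alone mice 5 of the 63 had no UMI at all and a further 17 had 1 to 3 in both mice together. Leaving out each of the 8 mice in turn, 21 of the 63 and 1 of the 8, Slc6a3, passed every time. The plot of the difference against the level of each gene shows the imbalance between the directions.

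**Figure D1:**
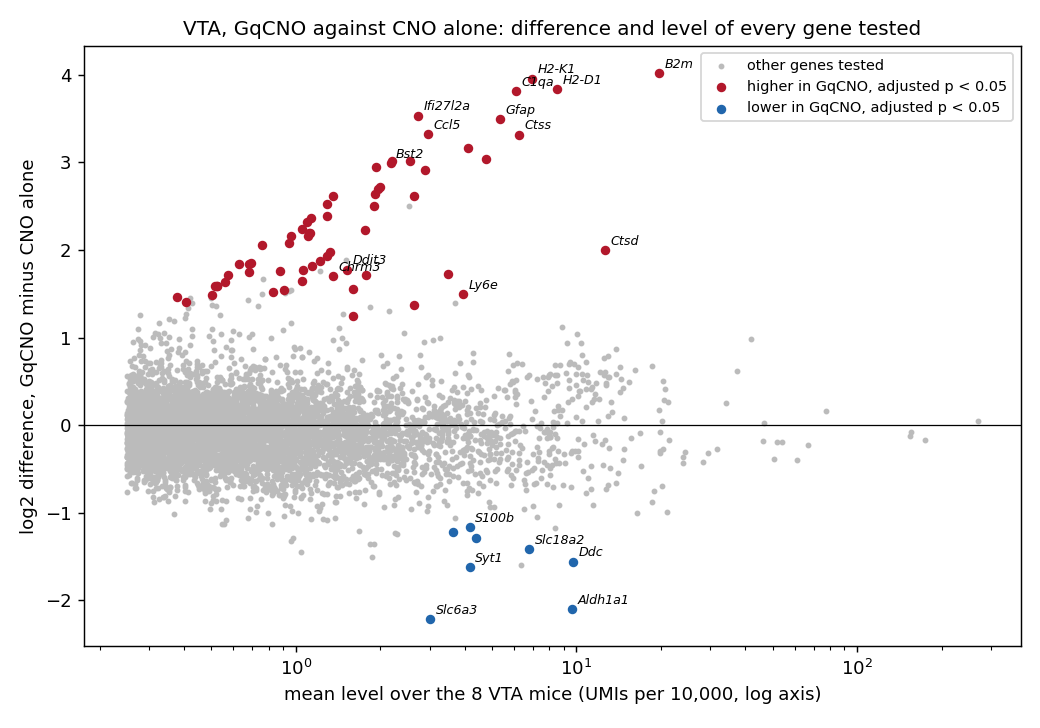
Each point is 1 of the 6312 tested genes in the VTA: the horizontal axis is its mean level over the 8 mice (UMIs per 10000, log axis) and the vertical axis the log2 difference of GqCNO over CNO alone mice. The 63 called higher genes reach 4.02 and the 8 called lower genes -2.21, while the median of all genes is -0.07.

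MHC class I genes showed the largest rises. B2m (ENSMUSG00000060802, chr2:122147687-122153082 in GRCm38.p6), the light chain shared by all class I molecules, had 59.5, 19.4 and 39.0 UMIs per 10000 in GqCNO mice, 17.0, 6.59 and 12.3 in GqVeh mice, and 1.37 and 2.16 in CNO alone mice. Every GqCNO mouse lay above every GqVeh mouse, and every GqVeh mouse above both CNO alone mice. The ratio of the GqCNO mean to the CNO alone mean was 22.3, and the log2 difference 4.02 ± 0.38 (SE, adjusted p = 1.9e-06). The heavy chain H2-K1 (ENSMUSG00000061232, chr17:33996012-34000619) had 21.3, 7.13 and 15.9 in GqCNO mice and 4.12, 1.55 and 4.68 in GqVeh mice, against 0.428 and 0.377 in CNO alone mice. It showed the same order of groups without overlap, with a 36.7-fold higher mean in GqCNO than in CNO alone mice (log2 difference 3.95 ± 0.39, adjusted p = 2.63e-06). The heavy chain H2-D1 (chr17:35263094-35267497) had 23.03, 8.81 and 19.4 in GqCNO mice, 6.28, 2.32 and 7.14 in GqVeh mice, and 0.571 and 0.720 in CNO alone mice (log2 difference 3.84 ± 0.39, adjusted p = 2.63e-06).

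Of the 23 genes on the list for class I antigen presentation, 19 were tested, and 10 rose and none fell, with a median log2 difference of 1.54 against -0.07 over all genes. The non-classical heavy chain H2-T23 had 9.66, 2.22 and 5.72 in GqCNO mice, against 0.200 and 0.172 in CNO alone mice (log2 difference 3.02 ± 0.49, adjusted p = 0.00104). The immunoproteasome subunit Psmb8, which takes part in cutting the peptides, had 4.04, 1.86 and 1.74 in GqCNO mice and 0.0857 and 0.0343 in CNO alone mice (log2 difference 2.37, adjusted p = 0.00146). In both genes all GqCNO mice stood above both CNO alone mice. The remaining risers were H2-Q7, H2-T22, the second immunoproteasome subunit Psmb9, the peptide transporter subunit Tap1 and its partner tapasin (Tapbp). The list's count was 5 without either CNO alone mouse and 6 to 10 without a GqCNO mouse. The class I heavy chain genes H2-K1, H2-D1 and H2-Q7 are close copies of each other, as are Ifit3 and Ifit3b, and C4b and C4a, so the split of reads within these families is uncertain.

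**Figure D2:**
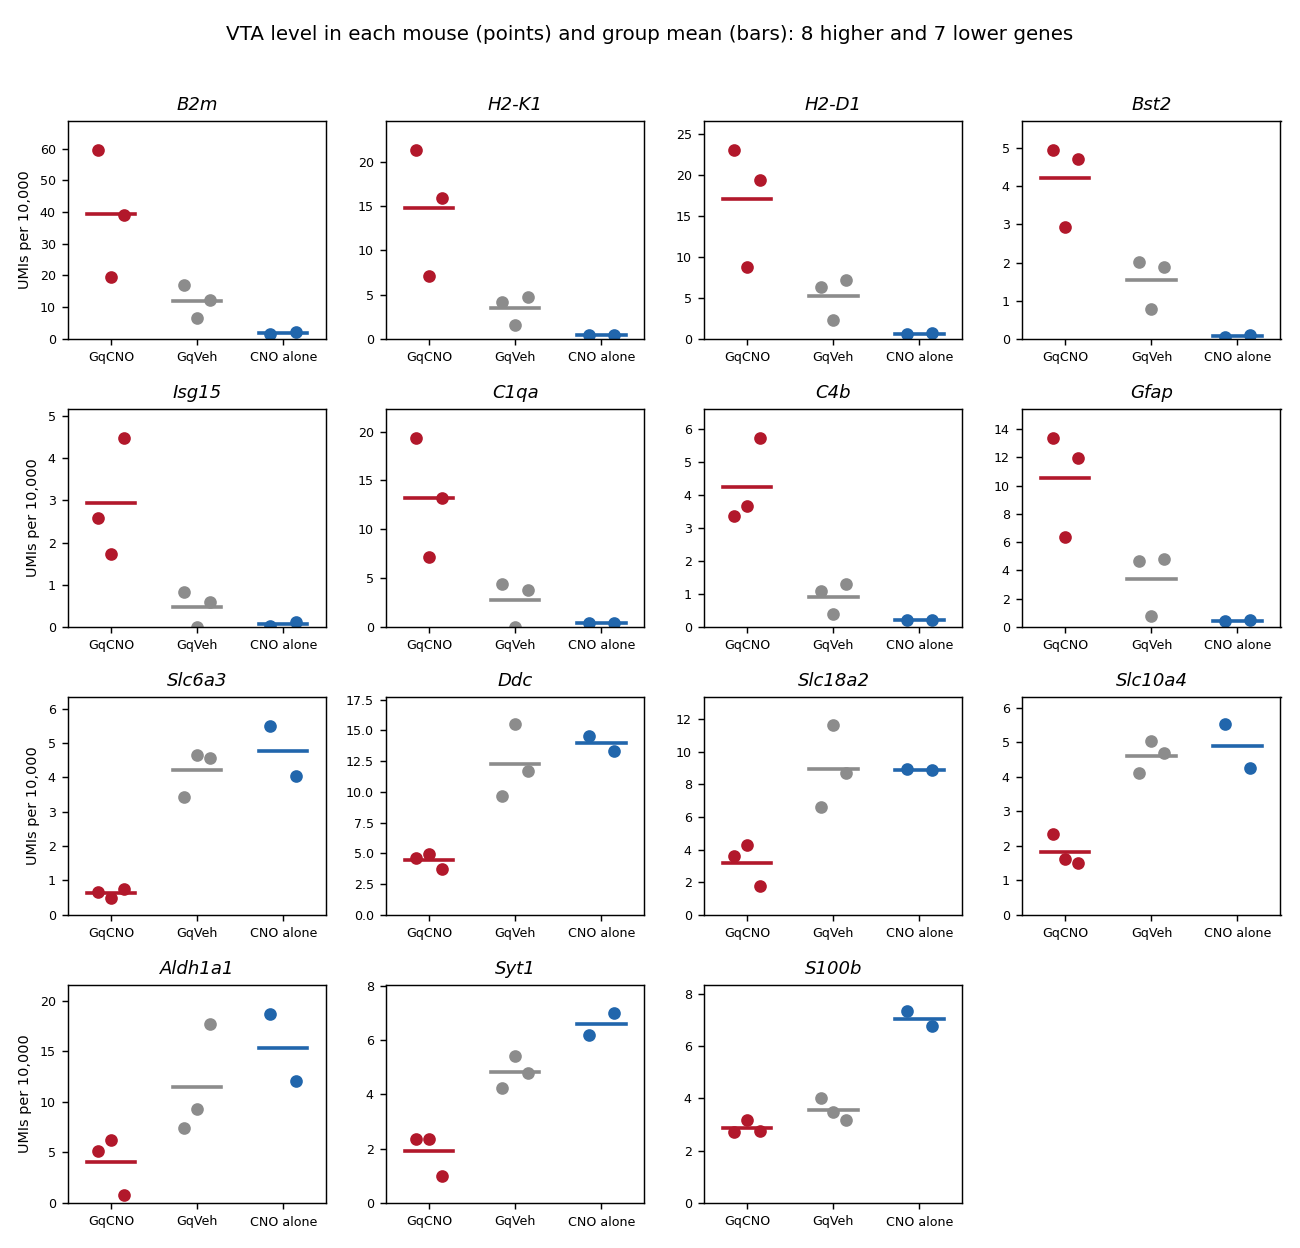
Levels in the VTA of each mouse (UMIs per 10000, linear axes from 0) for 8 higher and 7 lower genes, with GqCNO mice left, GqVeh mice in the middle and CNO alone mice right; each point is 1 mouse and each bar a group mean. In every panel all 3 GqCNO mice lie on the same side of both CNO alone mice, as for B2m (59.5, 19.4 and 39.0 against 1.37 and 2.16) and Slc6a3 (0.674, 0.480 and 0.746 against 5.51 and 4.05).

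Interferon-stimulated genes rose as the largest group by number. Of 56 genes on that list 36 were tested, and 23 rose and none fell, with a median log2 difference of 1.67, or 2.02 when genes without a UMI in CNO alone mice are set at their bound. The list's count fell to 11 without either CNO alone mouse, and was 13 without GqCNO mouse 781 or 804 and 23 without mouse 801. Bst2 (chr8:71534255-71537472), tetherin, which holds budding viruses at the cell surface, had 4.94, 2.94 and 4.72 in GqCNO mice, 2.01, 0.775 and 1.87 in GqVeh mice, and 0.0571 and 0.103 in CNO alone mice. The 3 groups did not overlap, and the GqCNO mean was 52.5 times the CNO alone mean (log2 difference 2.99 ± 0.34, adjusted p = 1.81e-05).

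Ifi27l2a, a small mitochondrial protein induced by interferon, had 5.06, 2.94 and 9.70 in GqCNO mice, 2.40, 0 and 1.76 in GqVeh mice, and no UMI in either CNO alone mouse. Against the 3 UMIs that a count of 0 allows over both CNO alone profiles, its GqCNO mean was at least 126-fold higher (adjusted p = 0.000456). Such bounds, here and below, take the GqCNO mean as measured and leave out the spread between mice. Lgals3bp, a secreted glycoprotein, had 8.76, 3.78 and 4.97 in GqCNO mice, against 0.200 and 0.412 in CNO alone mice (log2 difference 2.91, adjusted p = 0.000321). Ifit1, which binds viral RNA, differed in its order of mice: it had 2.02, 5.04 and 6.22 in GqCNO mice, lowest in mouse 781, against 0.0571 and 0.0686 in CNO alone mice (log2 difference 3.01, adjusted p = 0.00189, and 0.0527 without mouse 804). The chemokine Cxcl10 had 3.82, 0.899 and 0.995 in GqCNO mice and no UMI in CNO alone mice, and its GqCNO mean was at least 40.7-fold higher. Cxcl10 was highest in mouse 781, and its call (adjusted p = 0.00914) was lost without mouse 781 or either CNO alone mouse. Isg15, a ubiquitin-like protein attached to others after interferon and named here after its values were seen, had 2.58, 1.74 and 4.48 in GqCNO mice and 0.0286 and 0.103 in CNO alone mice (log2 difference 2.53, adjusted p = 0.001).

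Because these genes moved together, their RefSeq promoters (GRCm38.p6, 250 bases before to 50 after the first listed start site) were searched on both strands for GAAA repeated at a distance of 2 free bases (GAAA, NN, GAAA), the core of the interferon-stimulated response element. Windows were found for 46 of the 63 higher genes, and 15 of them (32.6%) held these letters, against 943 of 27025 genes with a window (3.49%). They were in 10 of 15 windows of higher genes from the interferon list, in 3 of 10 from the class I list (B2m, H2-T23 and H2-T22) and in 2 of 21 from neither (Ctss and Aif1), and in none of the windows of 7 lower genes. Ifit3 and Ifit3b, both counted, hold the same stretch. The interferon list was made of genes that interferon induces, so its share of these letters cannot be read as a result of these mice. Uncalled genes of that list were not counted apart. Of 2 other motifs searched, TTCNNNGAA was in 5 of the 46 (10.9%, against 8.47% of all genes with a window). AAAGGTCA was in 0 of the 46 (against 1.46%) and in 1 of the 7, Ddc. The stretches around the response element letters are shown for 2 class I genes and 4 interferon-stimulated genes described above, 5′ to 3′ on the strand of the gene with the matching letters, in either orientation, in capitals, and a match is a description of sequence and not of binding.
B2m (chr2:122147528-122147577, plus strand): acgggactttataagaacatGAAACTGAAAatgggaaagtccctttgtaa
H2-T23 (chr17:36032796-36032845, minus strand): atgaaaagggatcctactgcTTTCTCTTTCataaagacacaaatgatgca
Bst2 (chr8:71537567-71537622, minus strand): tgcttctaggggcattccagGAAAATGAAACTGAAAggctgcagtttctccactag
Ifit1 (chr19:34640765-34640833, plus strand): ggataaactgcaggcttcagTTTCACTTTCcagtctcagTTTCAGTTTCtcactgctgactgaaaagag
Isg15 (chr4:156200855-156200916, minus strand): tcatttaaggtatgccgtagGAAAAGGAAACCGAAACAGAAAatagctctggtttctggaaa
Cxcl10 (chr5:92349073-92349122, minus strand): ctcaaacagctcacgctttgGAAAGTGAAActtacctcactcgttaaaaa
Relative to the start site the match begins at base -139 in B2m, -124 in H2-T23 and -213 in Cxcl10. Bst2 holds 2 overlapping matches, Ifit1 2 separate ones and Isg15 3 overlapping ones.

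MHC class II genes, which present peptides from outside the cell and in brain are chiefly expressed by activated microglia and other phagocytes, were near 0 in CNO alone mice. Of 9 genes on that list 7 were tested, and 3 rose (Ctss, H2-Aa and H2-Ab1) and none fell, with a median log2 difference of 2.19, or 2.50 with genes that lack a UMI in CNO alone mice at their bound. The count was 1 without either CNO alone mouse and 2 without GqCNO mouse 781. Ctss, the lysosomal protease that trims the class II invariant chain, had 21.8, 7.07 and 7.46 in GqCNO mice, 5.40, 0.775 and 6.09 in GqVeh mice, and 0.600 and 0.618 in CNO alone mice (log2 difference 3.32 ± 0.51, adjusted p = 0.000684). All GqCNO mice stood above all others, mouse 781 far above. H2-Aa, the class II alpha chain, had 6.74, 0.719 and 1.24 in GqCNO mice, 0.0491, 0 and 0 in GqVeh mice, and no UMI in CNO alone mice. Its GqCNO mean was at least 62.1-fold higher and came mostly from mouse 781, and its call (adjusted p = 0.0129) was lost without C1W7 (0.117) or C2W2 (0.126). The beta chain H2-Ab1 had 6.74, 0.300 and 1.74 in GqCNO mice and 0.0286 and 0 in CNO alone mice (adjusted p = 0.0466), a call kept only without GqCNO 801 or GqVeh 802 when a mouse was left out.

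Ccl5, a chemokine made by T and natural killer (NK) cells among others, had 12.8, 1.08 and 6.47 in GqCNO mice, 1.13, 0 and 2.11 in GqVeh mice, and 0.0571 and 0 in CNO alone mice. Pooled over the mice of each group, its UMIs per total stood in a ratio of 171 (95% exact binomial interval 46.6 to 1426). That interval covers counting error and not the spread between mice. The log2 difference was 3.32 ± 0.62 (adjusted p = 0.00474), and the call was lost without GqCNO mouse 781 (0.0800) or 804 (0.104). The markers of T and NK cells, 15 of 16 in the files and Ccl5 among them, summed to 14.8, 1.38 and 8.70 in GqCNO mice and 0.0857 and 0.0686 in CNO alone mice. Most of these sums was Ccl5 itself, and the other 14 markers summed to 2.02, 0.30 and 2.24 in GqCNO mice and 0.0286 and 0.0686 in CNO alone mice, where the defining markers Cd3d, Cd3e, Cd3g, Cd8a, Trac, Nkg7 and Gzmb were at 0. Markers of B and plasma cells stood apart in a single mouse: they summed to 0.674, 20.7 and 1.24 in GqCNO mice, of which the immunoglobulin heavy chain Ighm gave 9.83 in mouse 801, against 0.171 and 0.172 in CNO alone mice. Markers of macrophages and monocytes summed to 4.83, 1.86 and 1.74 in GqCNO mice and 0.257 and 0.0686 in CNO alone mice, and 9 of the 12 had UMIs in GqCNO mice against 4 in CNO alone mice. Mrc1 and F13a1 were at 0 in GqCNO mice, Lyve1, Pf4, Ms4a7, Ccr2, Ly6c2, Plac8 and Cd14 in CNO alone mice, and Cd163 in every VTA profile. The part of such cells in the results was not tested.

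Complement and microglial genes were higher in GqCNO mice. C1qa (chr4:136895916-136898844), a chain of C1q, which starts the classical complement pathway and tags synapses for removal by microglia, had 19.3, 7.13 and 13.2 in GqCNO mice, 4.37, 0 and 3.75 in GqVeh mice, and 0.400 and 0.412 in CNO alone mice. The GqCNO mean was 32.6 times the CNO alone mean (log2 difference 3.81 ± 0.60, adjusted p = 0.000908). The other chains rose with it, C1qb with 14.6, 4.92 and 9.45 in GqCNO mice and 0.685 and 0.583 in CNO alone mice (log2 difference 3.04), and C1qc with 13.5, 3.72 and 7.71 in GqCNO mice and 0.343 and 0.412 in CNO alone mice (3.16). In all 3 chains mouse 781 was highest, mouse 801 lowest and no GqCNO mouse overlapped CNO alone mice. C4b, which the activated C1 complex cleaves, had 3.37, 3.66 and 5.72 in GqCNO mice, 1.08, 0.387 and 1.29 in GqVeh mice, and 0.200 and 0.206 in CNO alone mice (log2 difference 2.72 ± 0.34, adjusted p = 6.66e-05), a 20.9-fold higher mean with mouse 804 highest. With C3, 5 of the 9 tested complement genes rose and none fell.

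Of 20 microglial markers 16 were tested, and 10 rose and none fell, with a median log2 difference of 1.69. The count was 5 without C1W7 and 6 without C2W2 or GqCNO mouse 781. Their summed level was 102, 39.4 and 58.4 in GqCNO mice, 31.0, 6.59 and 31.7 in GqVeh mice, and 5.31 and 5.66 in CNO alone mice, and all 20 had UMIs in both GqCNO and CNO alone mice. C1qa, C1qb, C1qc and Ctss, described above, are among these markers, and C1qa alone gave 19.3, 7.13 and 13.2 of the GqCNO sums. Tyrobp and Laptm5 are also on the phagocyte activation list below, so the lists overlap. The marker Aif1 rose (2.36, 1.02 and 0.995 in GqCNO mice and 0.200 and 0.103 in CNO alone mice, adjusted p = 0.0302) although discs rich in it were left out, a call lost without GqCNO 781 (0.231), C1W7 (0.297), C2W2 (0.585) or GqVeh 784 (0.0513). The homeostatic receptor Cx3cr1 had 2.70, 1.08 and 0 in GqCNO mice and 0.428 and 0.309 in CNO alone mice and did not pass (adjusted p = 1.0). Tyrobp, the adaptor through which phagocyte receptors such as TREM2 signal, had 5.28, 3.18 and 3.73 in GqCNO mice and 0.114 and 0.274 in CNO alone mice (log2 difference 2.70, adjusted p = 0.00146). Trem2 itself had 2.02, 1.32 and 1.24 in GqCNO mice and 0.314 and 0.103 in CNO alone mice, above both in each GqCNO mouse without passing the test (adjusted p = 0.131).

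Of 35 genes on the phagocyte activation list 23 were tested, and 8 rose and none fell (median log2 difference 1.35). The count was 2 without GqCNO mouse 781 or either CNO alone mouse and 11 without mouse 801. Among them the lysosomal protease Ctsd, already abundant in CNO alone mice, had 28.1, 14.9 and 19.4 in GqCNO mice, 10.1, 6.20 and 12.9 in GqVeh mice, and 4.11 and 5.25 in CNO alone mice (log2 difference 2.00 ± 0.30, adjusted p = 0.000606). Its groups did not overlap. Cst7, a protease inhibitor of activated microglia, had 3.48, 0.659 and 0.746 in GqCNO mice and no UMI in CNO alone mice, and its GqCNO mean was at least 34.9-fold higher. The call (adjusted p = 0.0302) was lost without GqCNO 781 (0.178), GqCNO 804 (0.0513) or GqVeh 784 (0.0504). It was also lost without C1W7 or C2W2 (log2 difference 1.84 in each case). Of the 37 tested lysosomal genes, most of which every cell type expresses, 5 rose, Ctsd, Grn, Ctsz and Cd63 among them, and the median was 0.31. That count was 1 without either CNO alone mouse and 2 without GqCNO mouse 781 or 804. Apoe, a lipid carrier made by astrocytes and microglia, had 63.4, 50.8 and 65.7 in GqCNO mice and 30.2 and 29.5 in CNO alone mice, no overlap but an adjusted p of 0.0581.

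**Figure D3:**
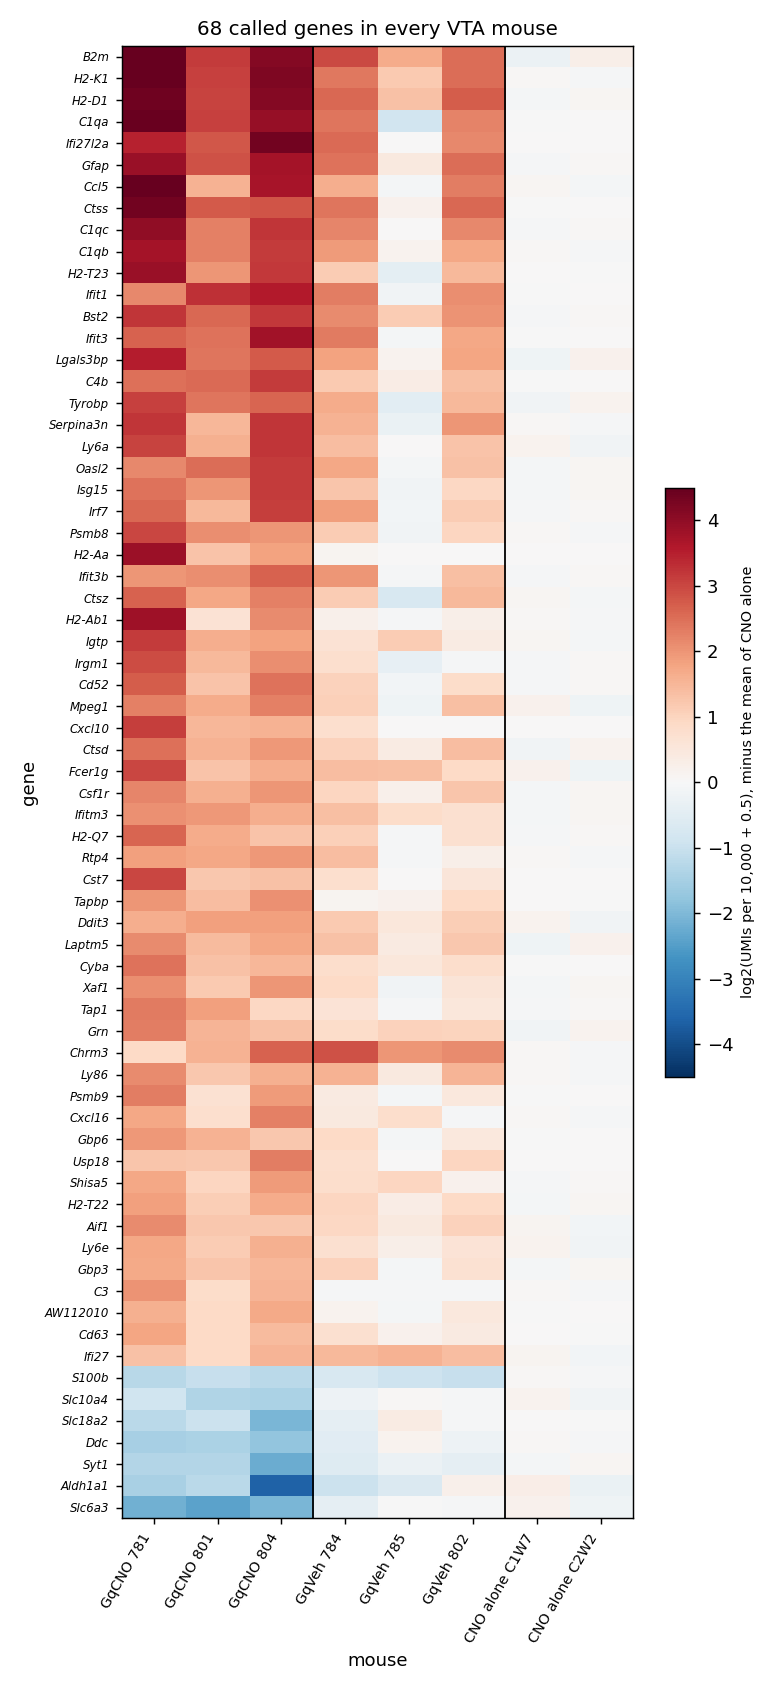
Levels of 61 of the 63 higher and 7 of the 8 lower genes (rows) in the VTA of each mouse (columns, GqCNO left, then GqVeh, CNO alone right), as log2 of UMIs per 10000 plus 0.5 minus the gene's mean in CNO alone mice, red where higher and blue where lower. GqCNO mouse 801 has the lowest of the 3 GqCNO values in 48 of the 61 higher genes drawn.

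Gfap (ENSMUSG00000020932, chr11:102887336-102897200), the intermediate filament that reactive astrocytes accumulate, had 13.4, 6.35 and 11.9 in GqCNO mice, 4.66, 0.775 and 4.80 in GqVeh mice, and 0.400 and 0.480 in CNO alone mice. Its groups did not overlap, and the GqCNO mean was 24.0 times the CNO alone mean (log2 difference 3.49 ± 0.44, adjusted p = 6.66e-05), after discs rich in Gfap had been left out. Serpina3n, a protease inhibitor of reactive astrocytes, had 5.28, 1.26 and 5.22 in GqCNO mice and 0.143 and 0.103 in CNO alone mice (log2 difference 2.64, adjusted p = 0.00751), and its call was lost without GqCNO mouse 781 (0.122), GqCNO mouse 804 (0.140) or C2W2 (0.0573). Of 22 genes on the reactive astrocyte list 9 were tested, and 5 rose, of which Psmb8 and Cxcl10 are also on the lists above and C3 is a complement gene. The count was 2 without GqCNO mouse 781 or C2W2 and 3 without GqCNO mouse 804 or C1W7. General astrocyte markers, all 19 of them tested, had a median log2 difference of 0.08, near that of all genes, and their sum was 83.4, 68.5 and 85.8 in GqCNO mice, 60.9, 41.5 and 55.5 in GqVeh mice, and 59.2 and 58.5 in CNO alone mice. Gfap was the only 1 of the 19 that rose. S100b, a calcium-binding protein of astrocytes, fell, with 2.70, 3.18 and 2.74 in GqCNO mice and 7.34 and 6.76 in CNO alone mice (log2 difference -1.17 ± 0.27, adjusted p = 0.0259). The call was lost with TMM scaling and without GqCNO 781 (0.0800), GqCNO 804 (0.0868), C1W7 (0.674) or C2W2 (0.392). GqVeh mice had 4.02, 3.49 and 3.16 and overlapped GqCNO mice (log2 difference of GqCNO over GqVeh mice -0.27, adjusted p = 0.70).

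Genes that dopamine neurons use to handle dopamine fell, Slc6a3 most. Slc6a3 (ENSMUSG00000021609, chr13:73536128-73578672), encoding DAT, had 0.674, 0.480 and 0.746 in GqCNO mice, 3.43, 4.65 and 4.57 in GqVeh mice, and 5.51 and 4.05 in CNO alone mice. GqCNO mice lay below all others, and GqVeh mice overlapped CNO alone mice. The log2 difference from CNO alone mice was -2.21 ± 0.29 (adjusted p = 0.000108) and that from GqVeh mice -2.05 (adjusted p = 0.000473). The Cre allele is at this locus and all groups carry it on both copies. Ddc (ENSMUSG00000020182, chr11:11814101-11898144) had 4.61, 4.92 and 3.73 in GqCNO mice, 9.66, 15.5 and 11.7 in GqVeh mice, and 14.5 and 13.3 in CNO alone mice (log2 difference -1.56 ± 0.26, adjusted p = 0.00146, and 0.0668 without C1W7). Again the GqCNO mice lay below all 5 others. Slc18a2 had 3.60, 4.26 and 1.74 in GqCNO mice, 6.57, 11.6 and 8.67 in GqVeh mice, and 8.91 and 8.89 in CNO alone mice (log2 difference -1.42 ± 0.31, adjusted p = 0.0201).

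Slc6a3 and Slc18a2 were among the genes that admitted a disc to the VTA, so their levels are those of discs that met that rule; Ddc was not. Th, the third of them, did not pass the test (log2 difference -0.99 ± 0.39, adjusted p = 0.545), and its lowest value by far was that of GqCNO mouse 804, the profile of 4 discs. Slc10a4, a vesicular protein of monoaminergic neurons, had 2.36, 1.62 and 1.49 in GqCNO mice, 4.12, 5.04 and 4.68 in GqVeh mice, and 5.54 and 4.25 in CNO alone mice (log2 difference -1.22 ± 0.28, adjusted p = 0.0283). Aldh1a1, an aldehyde dehydrogenase that marks a subset of midbrain dopamine neurons, had 5.17, 6.17 and 0.746 in GqCNO mice, 7.41, 9.30 and 17.7 in GqVeh mice, and 18.7 and 12.04 in CNO alone mice (log2 difference -2.10 ± 0.48, adjusted p = 0.0248). In both genes the GqCNO mice lay below all others. The calls of Slc18a2, Slc10a4 and Aldh1a1 were lost with TMM scaling (log2 -1.39, -1.20 and -2.06), without GqCNO mouse 804 (adjusted p = 0.151, 0.125 and 0.141) and without C1W7 (0.271, 0.898 and 0.354). Those of Slc18a2 and Slc10a4 were also lost without C2W2 (0.247 and 0.212), and that of Slc10a4 without GqCNO mouse 801 (0.0815).

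Of the 14 genes of dopamine synthesis, storage and uptake all were tested, and 4 fell (Slc6a3, Ddc, Slc18a2 and Slc10a4) and none rose, with a median of -0.84 against -0.07 over all genes. The count was 1 without C1W7, 2 without C2W2 or without GqCNO mouse 804, and 2 with TMM scaling. The 12 markers of dopamine neurons summed to 45.7, 47.1 and 17.7 in GqCNO mice, 63.5, 87.6 and 82.2 in GqVeh mice, and 97.1 and 83.3 in CNO alone mice, and all 11 tested markers were lower in each GqCNO mouse than in both CNO alone mice, against 15.3% of all genes. Of these 11, 5 passed the test, against 1 without C1W7, 3 without C2W2, and 2 without GqCNO mouse 804 or with TMM scaling. Of 30 genes of dopamine neuron identity 21 were tested, and 2 fell, Aldh1a1 among them, and none rose; none passed without GqCNO mouse 804 or C1W7, 1 without C2W2 or with TMM scaling, and 6 without GqCNO mouse 801. Nr4a2, the transcription factor that maintains these neurons, had 0.899, 1.08 and 0.995 in GqCNO mice and 1.31 and 1.48 in CNO alone mice, below both in each GqCNO mouse with an adjusted p of 1.0 (log2 difference -0.35). Cck, a neuropeptide of VTA dopamine neurons, had 1.24, 10.6 and 1.24 in GqCNO mice and 9.88 and 8.65 in CNO alone mice, and so overlapped through mouse 801 (adjusted p = 0.267). Chrna6, a nicotinic receptor subunit largely restricted to catecholamine neurons, had 0.674, 1.499 and 0 in GqCNO mice and 2.77 and 2.23 in CNO alone mice (adjusted p = 0.112).

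**Figure D4:**
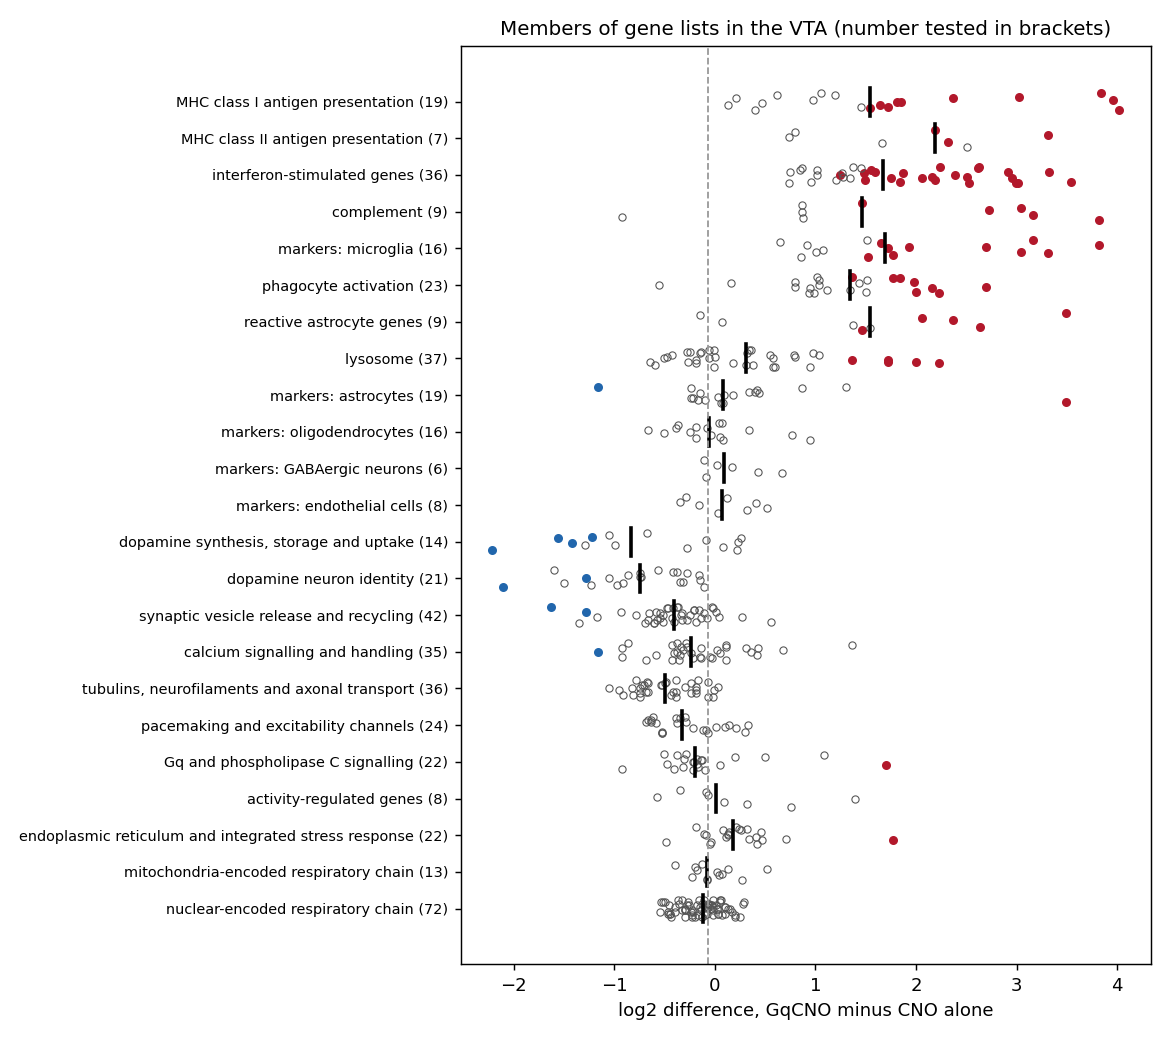
For each gene list, every point is the log2 difference of a tested member (GqCNO over CNO alone, VTA), filled where its adjusted p is under 0.05, and the bar is the list's median. The MHC class I, interferon and microglial lists have medians of 1.54, 1.67 and 1.69, and the list of dopamine synthesis, storage and uptake -0.84, against -0.07 for all tested genes.

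Of 42 tested genes of synaptic vesicle release and recycling 2 fell, Syt1 among them, and none rose, and the median was -0.41. The count of falls was 1 without GqCNO mouse 804 and 0 without either CNO alone mouse. Syt1, the calcium sensor of vesicle release, had 2.36, 2.34 and 0.995 in GqCNO mice, 4.22, 5.42 and 4.80 in GqVeh mice, and 6.20 and 6.999 in CNO alone mice. The 3 groups did not overlap (log2 difference -1.62 ± 0.31, adjusted p = 0.00474, but 0.0698 without C1W7 and 0.155 without C2W2). Cplx2, a complexin, had 0.674, 1.68 and 0.497 in GqCNO mice and 3.03 and 2.95 in CNO alone mice and lay just outside the threshold (log2 difference -1.35, adjusted p = 0.0545). None of the 36 genes for tubulins, neurofilaments and axonal transport passed in either direction. Their median was -0.49, and 20 of the 36 were below both CNO alone mice in every GqCNO mouse, against 15.3% of all tested genes. Among the 20 was the neuronal tubulin Tubb3, with 4.49, 4.74 and 2.49 in GqCNO mice and 8.08 and 7.51 in CNO alone mice (adjusted p = 0.163).

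Markers of other neurons, oligodendrocytes and vessels did not pass. The 6 tested markers of GABAergic neurons had a median log2 difference of 0.09, the 8 of endothelial cells 0.08 and the 16 of oligodendrocytes -0.06, the last with sums of 168, 148 and 209 in GqCNO mice and 180 and 188 in CNO alone mice. Markers of blood cells summed to 47.7 in GqCNO mouse 804, against 1.91 and 6.47 in mice 781 and 801 and 6.57 and 9.81 in CNO alone mice, and none of the 4 tested passed.

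Of 22 tested genes of Gq and phospholipase C signalling, through which the receptor acts, Chrm3 rose and none fell (median -0.19); 1 gene in lists of this size cannot be read against the 0.998% higher and 0.127% lower over all genes. Gnaq, encoding the Gq alpha subunit, had 0.786, 1.68 and 0.995 in GqCNO mice and 0.999 and 2.44 in CNO alone mice and overlapped. Of 35 tested genes of calcium signalling and handling S100b fell and none rose (median -0.24), and Calm2, a calmodulin gene, had 6.97, 9.05 and 5.97 in GqCNO mice and 9.59 and 10.2 in CNO alone mice (log2 difference -0.43, adjusted p = 0.972). Of 33 activity-regulated genes only 8 were abundant enough to test, with Fos, Arc and Npas4 not among them, and none passed. The nearest was Vgf, a secreted neuropeptide precursor induced by activity, with 3.15, 8.93 and 5.72 in GqCNO mice, 2.65, 1.55 and 4.10 in GqVeh mice, and 1.63 and 1.92 in CNO alone mice (log2 difference 1.40 ± 0.36, adjusted p = 0.0717). Its GqCNO mice stood above both CNO alone mice and overlapped GqVeh mice.

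Among stress genes Ddit3, encoding CHOP, a transcription factor of the endoplasmic reticulum and integrated stress response, had 2.25, 2.70 and 2.74 in GqCNO mice, 1.52, 0.775 and 1.41 in GqVeh mice, and 0.485 and 0.309 in CNO alone mice. Its GqCNO values were close together and the 3 groups did not overlap (log2 difference 1.77 ± 0.31, adjusted p = 0.00269, and 0.136 without C2W2). It was the only called gene of 22 tested on that list, whose median was 0.18; its partner Atf4 had 1.69, 2.70 and 2.24 in GqCNO mice and 1.34 and 1.54 in CNO alone mice (adjusted p = 1.0). Sgk1, a kinase induced by glucocorticoids, had 1.35, 1.38 and 3.23 in GqCNO mice, 0.687, 0 and 0.234 in GqVeh mice, and 0.600 and 0.103 in CNO alone mice, without overlap but not past the test (adjusted p = 0.0849). None of the 13 mitochondria-encoded and 72 nuclear-encoded genes of the respiratory chain passed, with medians of -0.08 and -0.12, nor did any of the 24 tested channel genes of pacemaking and excitability (median -0.32), the 27 cytosolic chaperones (-0.10) or the 17 genes of cholesterol synthesis (-0.37).

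The GqVeh mice place these differences. Of the 6312 genes tested, GqCNO against GqVeh gave 20 higher and 10 lower. GqVeh against CNO alone gave 5 higher (B2m 2.39, H2-K1 2.02, H2-D1 2.20, Bst2 1.76 and Chrm3 2.34 on the log2 scale) and none lower. In that second contrast 54 of the 6312 genes upwards and 75 downwards had an unadjusted limma p under 0.05. These are fewer than such a threshold passes without any difference, and GqCNO against CNO alone had 211 and 174. These contrasts share mice with the main one. For the class I, interferon and microglial lists the median log2 differences were 1.54, 1.67 and 1.69 for GqCNO over CNO alone mice, and 0.40, 0.57 and 0.89 for GqVeh over CNO alone mice. For dopamine synthesis, storage and uptake they were -0.84 for GqCNO and -0.05 for GqVeh over CNO alone mice. GqVeh mouse 785 rests on 2 discs and had the lowest GqVeh value for most of the immune genes named above.

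The same mice gave profiles of the substantia nigra (SN), from 1 to 7 discs each, and of the thalamus, which lacks dopamine neuron cell bodies. No gene's difference between GqCNO and CNO alone mice differed between VTA and SN (limma on the within-mouse difference, 0 of 5341 genes, 0%; 100 at an unadjusted p under 0.05; no other tool was run), which with so few SN discs does not show that they are alike. Over the 68 called VTA genes also tested in SN, the median difference in the direction of the VTA call was 2.07 in VTA and 1.71 in SN. Of the 68, 67 had the same sign in SN and 20 were also called there. These genes were chosen by their VTA difference, which raises the VTA median and not the SN one. B2m had 44.2, 27.0 and 45.4 in the SN of GqCNO mice and 1.25 and 1.85 in that of CNO alone mice (log2 difference 4.24), and Ddc had 10.2, 0 and 3.43 in GqCNO mice and 14.5 and 16.6 in CNO alone mice (-2.54). Slc6a3 had 5.44, 0 and 2.74 in the SN of GqCNO mice and 7.23 and 6.08 in that of CNO alone mice, and did not pass there (log2 difference -1.75, adjusted p = 0.165).

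Against the thalamus, 8 of 5366 genes (0.149%) differed in their response, 6 with a higher and 2 with a lower difference in VTA. The count was 0 without C1W7 or with a constant of 0.1, 2 without C2W2 or with a mean of at least 1 in each region, and 3 without GqCNO mouse 804. GqCNO mouse 801 has no thalamus profile, so these tests rest on GqCNO mice 781 and 804. Gfap had 1.06 and 0.922 in the thalamus of these GqCNO mice and 0.600 and 0.495 in CNO alone mice, and the VTA difference exceeded the thalamic one by 3.30 (log2, SE 0.49, adjusted p = 0.0015). B2m had 7.64 and 1.42 in the thalamus of GqCNO mice 781 and 804 and 1.25 and 1.36 in CNO alone mice. Mouse 804 thus lay only just above both CNO alone mice there, and mouse 781 well above them. The VTA difference of B2m exceeded the thalamic one by 3.32 (adjusted p = 0.00972). Over the 27 called VTA genes tested in thalamus the median difference in the direction of the call was 2.00 in VTA and 0.46 in thalamus. Of the 27, 25 had the same sign in thalamus and 0 were called there. The choice of genes by their VTA difference raises the VTA median here too.

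**Figure D5:**
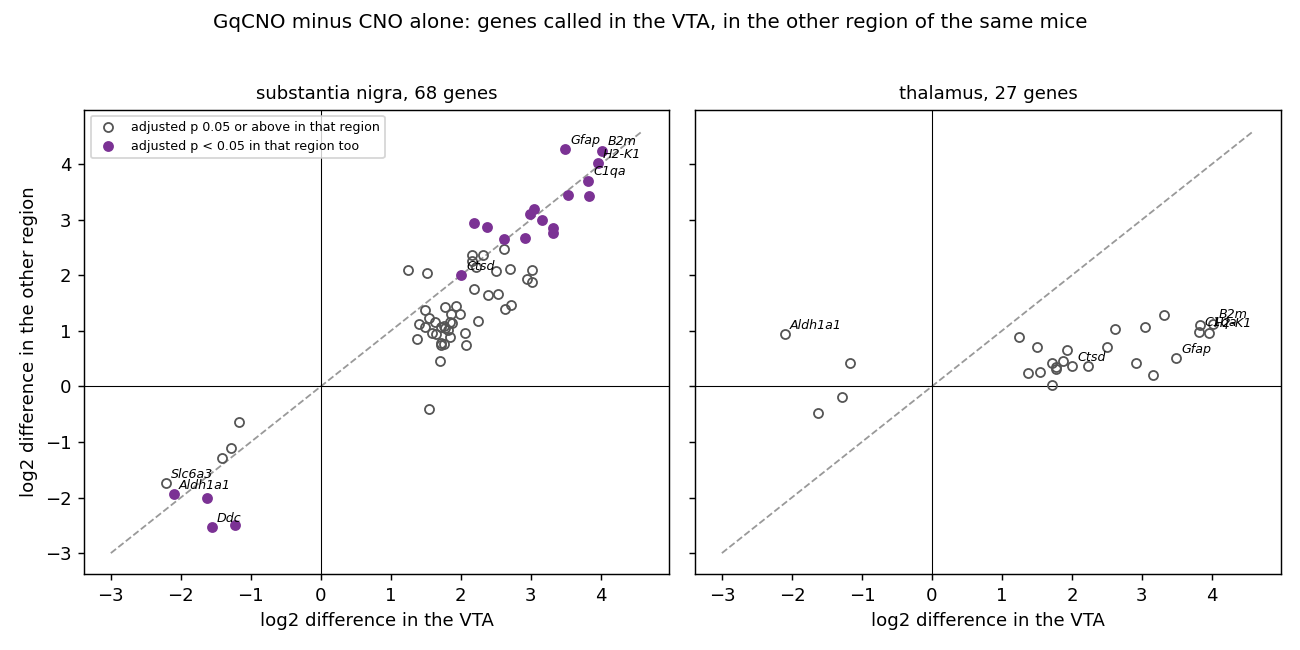
Log2 differences of GqCNO over CNO alone mice for the called VTA genes: horizontal axis in VTA, vertical axis in SN (left, 68 genes) or thalamus (right, 27 genes), with the line of equal difference. Medians in the direction of the VTA call are 2.07 in VTA and 1.71 in SN on the left, and 2.00 in VTA and 0.46 in thalamus on the right. The genes were chosen by their VTA difference, which raises the VTA medians.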

How the data were processed

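Deposited files held, for each gene, mouse and region, an average over discs that the authors describe as median normalized, a signal with no negative values, made with Space Ranger on mm10 per the submitters' processing notes; the versions and the annotation release are not given in the sources used here. Columns of other regions were used only for the SN and thalamus comparisons. All values of a column were whole multiples of 1 step (within 0.1 step), which gave UMI counts. Array pair 1 (GqCNO 801 and 804, GqVeh 802, C2W2) and array pair 2 (GqCNO 781, GqVeh 784 and 785, C1W7) were normalized separately by the authors, so each column was rescaled to 10000 UMIs. Genes with a mean of at least 0.25 over the 8 VTA profiles were tested (6312 of 17220) as log2(value + 0.5) with limma 3.58.1 (R 4.3.3, eBayes with trend) on 3 group means, adjusted by Benjamini-Hochberg. Log2 differences understate changes of low genes. Replicates are separate mice, 3, 3 and 2. The depth was 25808 to 350222 UMIs a profile; intervals and bounds cover counting error only.

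Alternatives were the array pair as a block, only GqCNO and CNO alone mice, other scalings, constants and filters, edgeR 4.0.16, voom and DESeq2 1.42.0 on recovered UMIs, the methods' t-test, and each mouse left out. Named genes were the 12 largest rises and 8 largest falls, up to 4 members of each list with the smallest p, and genes that the study's text names; others are said to be outside this rule or are listed by name as called, near-threshold or background members. The members and gene lists were chosen with earlier results of these data known. Coordinates are RefSeq's on GRCm38.p6 (the assembly behind mm10), found by gene symbol for 6235 of the tested genes. Results on 3 called genes are not reported here.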

Additional observations from a re-analysis of the deposited data

Results flagged for a closer look

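The difference between GqCNO and CNO alone mice differed between VTA and thalamus, by limma's test of the within-mouse difference, for 8 genes of those tested, and for 0 without C1W7 or with a constant of 0.1 before log2, 2 without C2W2 or with a mean of at least 1 in each region, and 3 without GqCNO mouse 804. It was higher in VTA by 3.30 on the log2 scale for Gfap (adjusted p = 0.0015), 3.42 for H2-K1 (0.00357), 3.41 for C1qc (0.00357), 3.32 for B2m (0.00972), 3.15 for H2-D1 (0.0216) and 2.73 for Lgals3bp (0.0134). VTA minus thalamus was -2.77 for the neuropeptide gene Cck (adjusted p = 0.00357) and -3.49 for Aldh1a1 (0.00874). Cck had 10.5 and 6.88 UMIs per 10000 in the thalamus of GqCNO mice 781 and 804, against 5.15 and 9.15 in that of CNO alone mice, and Aldh1a1 had 1.96 and 1.93 in GqCNO mice, against 0.950 and 0.619 in CNO alone mice. The 2 falls lack GqCNO mouse 801, which has no thalamus profile and was the GqCNO mouse with the highest VTA level of both genes (10.6 for Cck and 6.17 for Aldh1a1).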

How the results depend on the processing

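Of 71 called genes in the VTA (63 higher, 8 lower), the total was 67 with only GqCNO and CNO alone mice, 73 with the array pair as a block, 70 with values as deposited, 65 with TMM scaling, 50 and 66 with constants of 0.1 and 1, 52 with a mean of at least 1 and 105 with DESeq2 on recovered UMIs. It was 146 with edgeR (135 higher, 11 lower), 180 with edgeR and the array pair as a block (158 and 22) and 145 with voom (131 and 14). Without a filter on low values it was 9 (8 and 1), and with the methods' t-test after adjustment 0 (0 and 0). That t-test gave 373 of 6312 genes at an unadjusted p under 0.05, near the share that such a threshold passes without any difference. DESeq2 called 99 higher genes, and TMM scaling left 4 lower genes. Leaving out a mouse gave 28 (without either CNO alone mouse) to 88 (without GqCNO 801) in total, 25 to 75 higher and 1 to 20 lower; the 1 was without C1W7, and 3 were left without C2W2 or GqCNO 804. The cause of these shifts was not tested. VTA minus SN stayed at 0 under every alternative run. VTA minus thalamus gave 8 genes, 0 with a constant of 0.1, 21 with a constant of 1, 2 with a mean of at least 1, and 0 (without C1W7) to 27 (without GqVeh 785) when a mouse was left out. For the 131 named genes, 2404 values under alternatives kept their side of the threshold, 119 lost and 87 gained a call. Among values called in the main fit or the alternative, 0 reversed direction. Sign changes of genes called in neither were not counted. List counts without each mouse and with TMM scaling were added after seeing the data. The labels give the groups no shared replicate numbers, so mice were paired only by array pair, as the block above. A profile of 2 or 4 discs, and 2 CNO alone mice, limit the precision.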
